A study of Homo sapiens with 18 samples.

Results

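Activity-induced immediate early genes are transcribed within minutes of a stimulus from factors already present in the cell, and 10 of them were followed here among the 26372 gene symbols of one expression table. They were taken by symbol and not by their values: FOS, FOSB, JUN, JUNB, EGR1, EGR2, EGR3, NR4A1, ARC and NPAS4. RNA-seq had been done on 18 libraries of SH-SY5Y, an established line from a human neuroblastoma whose cells take on a neuron-like form when differentiated. Every library came from cells given a lentivirus made from the FUGW plasmid that carried ZNHIT3, a zinc-finger protein named in the series title for the assembly of small nucleolar ribonucleoproteins. The insert was wild type (WT), the C14R substitution (C14R) or a deletion labelled ∆251-254 (deletion). RNA was taken at day 0 or at day 18 of differentiation, with 3 libraries in each of 6 groups.

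The deletion libraries are titled as depleted, and the label gives positions 251-254 for replicate 1, 251-255 for replicate 2 and 251-256 for replicate 3 at both days, without saying what is numbered. They are treated as one group. No library without a ZNHIT3 virus was analysed here, and the deposited values do not separate the viral from the endogenous ZNHIT3 transcript. Per the labels' protocols, cells were kept in serum medium and infected on the day after plating. After 48 hours they went into serum-free medium that held KCl at 20 mM, dibutyryl cyclic AMP at 2 mM, BDNF at 50 ng/ml and retinoic acid at 10 µM. The loss of serum, the depolarizing KCl, the cyclic AMP analog, BDNF, retinoic acid and the time in culture therefore all differ between day 0 and day 18, and their effects cannot be told apart. The labels do not say that the replicates were separate cultures, so p-values measure only the spread between these libraries. The values are from bulk RNA, in which fewer cells expressing a gene and less RNA per cell cannot be told apart.

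As background, depolarization lets calcium into a neuron through voltage-gated channels, and cyclic AMP activates protein kinase A. Both routes lead to phosphorylation of CREB, which binds the cyclic AMP response element (CRE). Growth factors and serum act through the ERK kinases on ternary complex factors that sit with serum response factor (SRF) on CArG boxes. The RNAs made in this way are short-lived and usually return to a low level soon after the stimulus, while in many dividing cells serum and growth factors keep some of them present. A single sample taken long after the last medium change would show a steady level, not the first burst. The time from the last medium change to RNA collection is not given here. Whether the values below are steady levels was not tested.

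The genes fall into 4 roles. FOS, FOSB, JUN and JUNB encode subunits of AP-1, a dimer of a JUN protein with a FOS or another JUN protein. EGR1, EGR2 and EGR3 encode zinc-finger transcription factors. NR4A1 encodes an orphan nuclear receptor and NPAS4 a neuron-enriched basic helix-loop-helix factor that responds to calcium entry. ARC encodes a synaptic protein that promotes the removal of AMPA-type glutamate receptors.

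The RefSeq promoter table (GRCh38.p14) had a usable row for 8 of the 10 genes. Its window of 250 bases before the listed start was searched on both strands for the CRE core TGACG, the full CRE TGACGTCA (which contains the core), the CArG box, the AP-1 site TGANTCA and TATAAA. The 8 genes have 12 windows, since EGR2 has 3 and NPAS4 and NR4A1 have 2 each. The core was found in at least 1 window of 7 of the 8 genes (FOS, FOSB, JUN, JUNB, EGR1, EGR2 and NPAS4), and in 21.2% of 35116 single promoter windows of that length. In EGR2 only 1 of the 3 windows held it, and all 3 lie inside the annotated gene. A CArG box was found in EGR1 and in the same 1 window of EGR2, and in 1.16% of all windows, and TATAAA in FOS, FOSB and JUNB and in 10.7% of all windows. The full CRE and the AP-1 site, present in 1.65% and 6.57% of all windows, were in none of the 8. A match describes these letters only, and their absence from a window says nothing about binding elsewhere.

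3 promoters are shown because their genes carry the main patterns reported here: JUNB fell between the days, FOS rose in a pair of the constructs, and EGR1 was lower at day 18 in the libraries of both variants. EGR1 was added after its values had been seen. Capitals mark CRE cores and CArG boxes, all read 5′ to 3′ on the plus strand of GRCh38. The stretches are chr5:138465229-138465478 for EGR1, chr14:75278578-75278773 for FOS (stopping before the annotated transcript) and chr19:12791236-12791485 for JUNB.
EGR1: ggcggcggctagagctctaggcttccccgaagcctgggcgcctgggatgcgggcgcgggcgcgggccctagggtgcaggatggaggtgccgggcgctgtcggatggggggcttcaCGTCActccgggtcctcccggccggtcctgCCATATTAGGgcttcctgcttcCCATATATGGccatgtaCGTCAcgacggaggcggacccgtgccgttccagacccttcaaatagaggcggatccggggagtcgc
FOS: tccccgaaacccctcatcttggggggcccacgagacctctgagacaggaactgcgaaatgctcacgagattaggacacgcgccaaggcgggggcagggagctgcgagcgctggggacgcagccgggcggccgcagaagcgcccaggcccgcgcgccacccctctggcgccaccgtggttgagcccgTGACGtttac
JUNB: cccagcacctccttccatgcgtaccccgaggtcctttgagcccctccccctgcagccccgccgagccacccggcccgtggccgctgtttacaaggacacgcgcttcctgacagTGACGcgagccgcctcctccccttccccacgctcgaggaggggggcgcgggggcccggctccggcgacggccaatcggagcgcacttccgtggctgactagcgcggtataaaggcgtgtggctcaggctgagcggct
In EGR1 the 2 CArG boxes begin 105 and 83 bases before the listed start, between cores at 135 and 66 bases. FOS holds a core 64 bases and JUNB a core 137 bases before the start. The genes themselves span chr5:138465490-138469315 (EGR1), chr14:75278774-75282230 (FOS) and chr19:12791496-12793315 (JUNB), all on the plus strand in GENCODE release 29. JUN, at chr1:58780788-58784327 on the minus strand, also has a core, 123 bases before its RefSeq start. That window lies inside the JUN transcript of the GENCODE annotation, so the core is not upstream of the start given there.

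Expression is given as FPKM, which divides fragments by transcript length and library size, so levels can be set side by side between genes. Tests were made on log2(FPKM + 1) with limma over 13785 genes whose mean FPKM was at least 1, with Benjamini-Hochberg adjustment and a threshold of 0.05. Of the 10 genes, 6 reached that mean and were tested. FOSB, EGR2, EGR3 and NPAS4 did not, and ARC reached it only through its day 0 libraries, so its test had to find a difference between the days if the values were tight.

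As facts of the whole series, ZNHIT3 itself lay between 530.6 and 542 FPKM in WT libraries of day 0 and between 1103 and 1193 in those of day 18. C14R libraries had 418.9 to 432 and then 599.7 to 755.8, and deletion libraries 292 to 310.1 and then 294.3 to 312.8. The absolute depth is unknown, since FPKM hold no counts. Steps of single fragments put the day 0 libraries at 58.9% to 85.0% of the deepest library and the day 18 libraries at 82.1% to 100%. One small nucleolar RNA, SNORD3A, made up 6.88% to 58.6% of the FPKM sum at day 0 and 1.01% to 15.1% at day 18. C14R replicate 1 of day 18 stood apart, with a median absolute log2 deviation from its group of 0.105 against 0.0417 to 0.0728 in the other libraries. It also had the lowest SNORD3A share. The main tests and the correlations of EGR1 are given with and without it, while group means, marker counts and SPRY1 levels are given only with it. No 2 libraries were identical.

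Neuronal markers rose with differentiation: all 9 tested of 10 were higher at day 18 in each construct, and their summed level went from 465.8 to 469.6 FPKM up to 1353 to 1381 in WT. RBFOX3 stayed under a mean of 1. The summed level of 12 noradrenergic neuroblastoma markers went from 1483 to 1543 up to 2891 to 2982 in WT, with TH, tyrosine hydroxylase, under a mean of 1 in all 6 groups. All 8 markers of cycling cells were lower, their sum falling from 403 to 413.5 down to 139.9 to 146.5 in WT. All 8 tested of 10 mesenchymal or fibroblast markers were lower as well, from 553.2 to 559.6 down to 152.8 to 161.4. The 7 Schwann-type glial markers summed to 5.38 to 5.83 and then 11.04 to 12.56, with SOX10 and FOXD3 under 1. None of these markers was at 0 in all libraries. The part of these shifts in the levels below was not tested.

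JUNB, EGR1 and JUN were the most abundant of the 10 genes at day 0, and JUN, EGR1 and JUNB at day 18. In every day 0 group JUNB lay above JUN with no overlap between libraries, and JUN and EGR1 overlapped in WT and C14R. At day 18 JUN led in all groups with no overlap with EGR1. JUN moved from the 72nd to the 80th percentile of all gene symbols in WT and JUNB from the 76th to the 63rd. NPAS4 had the lowest mean of the 10 in all 6 groups.

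**Figure D1:**
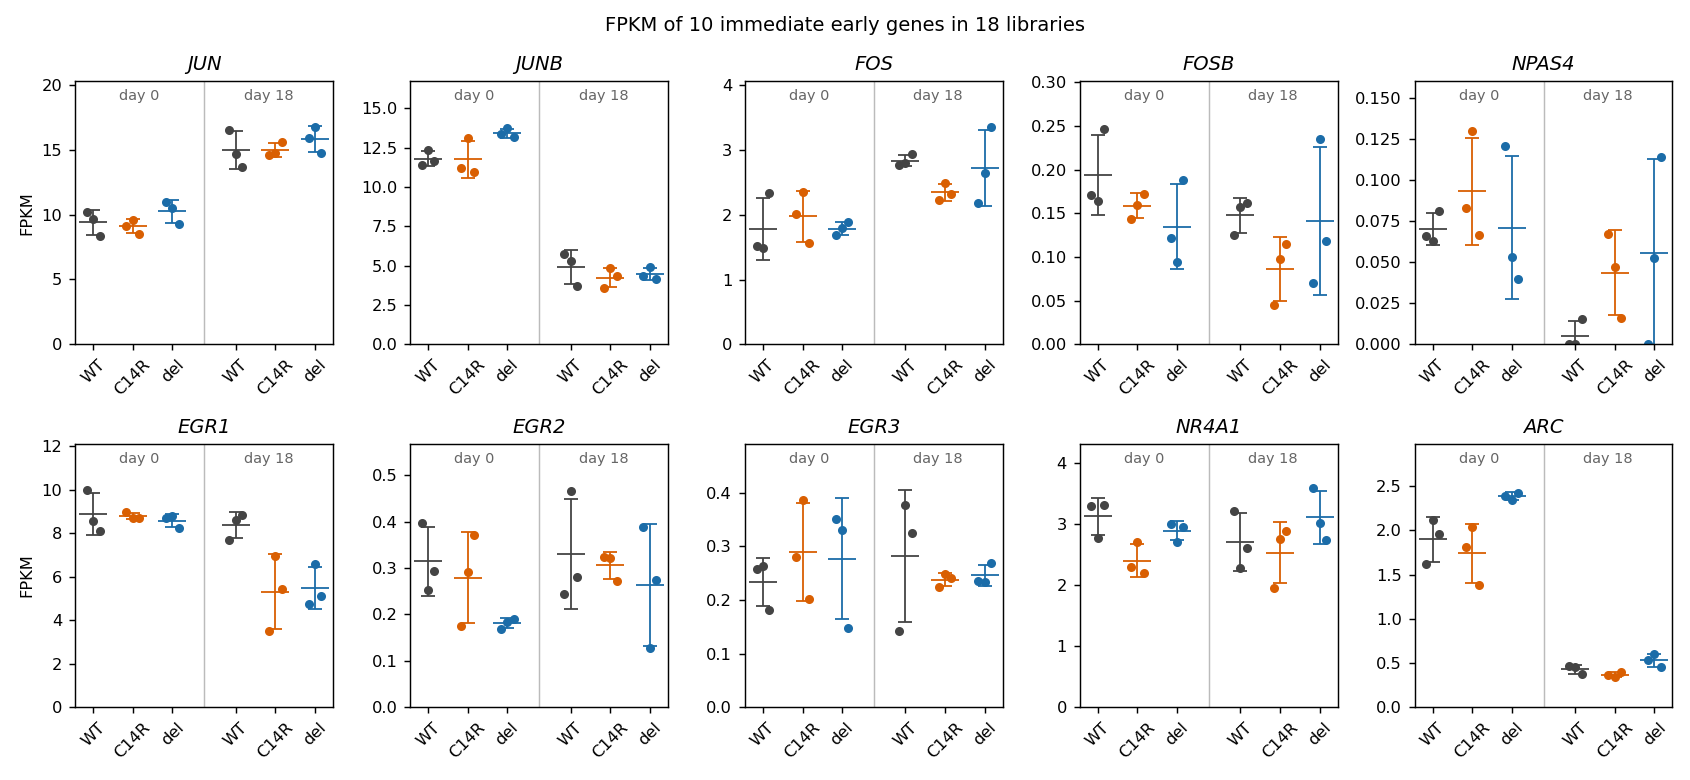
FPKM (linear axis from 0, its own scale in each panel) of the 10 genes in 18 libraries; each point is one library, the horizontal line the mean of 3 and the bar 1 SD, cut off at 0. JUNB and ARC sit lower and JUN higher at day 18 in all 3 constructs, EGR1 at day 18 is at 3.51 to 6.94 in C14R and deletion against 7.67 to 8.85 in WT, and FOSB, EGR2, EGR3 and NPAS4 stay under 0.5.

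Among the AP-1 subunits, JUN rose and JUNB fell between day 0 and day 18 in every construct. JUN, a strong activator, measured 10.2, 9.63 and 8.35 FPKM in the day 0 WT libraries (replicates 1 to 3) and 16.5, 14.7 and 13.7 in those of day 18. The means went from 9.39 ± 0.942 (SD, n = 3) to 15.0 ± 1.45, a 1.59-fold rise. In C14R the values were 9.12, 9.62 and 8.54 and then 14.6, 14.7 and 15.6 FPKM, and in deletion 10.9, 10.5 and 9.26 and then 15.9, 16.8 and 14.7. All 9 day 18 libraries lay above all 9 day 0 libraries. The share of all genes whose libraries separate the days is not given here, for JUN or for the genes below. By limma, 72.2% (WT), 72.9% (C14R) and 73.0% (deletion) of all tested genes passed between the days. The log2 change of JUN was 0.62 (SE 0.08) in WT, 0.66 in C14R and 0.58 in deletion, with limma adjusted p of 2.1e-06, 9.0e-07 and 4.3e-06. After rescaling without small RNA genes, which moved the median of all genes to 0.35 to 0.37, the JUN changes were 0.98, 1.01 and 0.93.

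JUNB encodes a weaker activator that can oppose JUN at some promoters. Its FPKM in WT was 11.4, 12.3 and 11.7, then 5.73, 5.29 and 3.73 at the later day. In C14R it was 11.2, 13.1 and 10.96 and then 3.58, 4.84 and 4.33, and in deletion 13.3, 13.7 and 13.2 and then 4.37, 4.92 and 4.15. No day 18 library reached the lowest day 0 value of 10.96. The day 18 means were 2.40-fold (WT), 2.77-fold (C14R) and 2.99-fold (deletion) lower. The log2 changes were -1.13 (SE 0.11), -1.28 and -1.40, with limma adjusted p of 7.9e-08, 1.5e-08 and 4.7e-09. JUNB shares 259 exonic bases with HOOK2 on the opposite strand, and whether the deposited values used strand is not given in the sources used here. HOOK2 had a mean of 3.96 ± 0.405 FPKM in WT at day 0 and 4.69 ± 0.0851 at day 18.

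The ratio of JUN to JUNB therefore lay between 0.703 and 0.894 over the 9 day 0 libraries and between 2.78 and 4.08 over the 9 day 18 libraries. The exact permutation of day labels within each construct, run on each gene and added after its values had been seen, gave a two-sided p of 0.00025 for JUN and for JUNB. That is the smallest value its 8000 relabelings can give. This permutation was run only on the 10 genes, so how many of all genes reach that value is not known. By limma, 72.2% (WT) to 73.0% (deletion) of all tested genes passed between the days.

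FOS, the AP-1 subunit that dimerizes only with other proteins such as JUN, was low. Day 0 WT libraries measured 1.52, 1.49 and 2.33 FPKM, and day 18 WT libraries 2.78, 2.8 and 2.93. C14R libraries had 2.01, 2.35 and 1.56 and then 2.24, 2.49 and 2.32, which overlap. Deletion libraries had 1.68, 1.79 and 1.89 and then 2.19, 2.64 and 3.35, which do not. The log2 rise was 0.48 (SE 0.13, limma adjusted p = 0.0025) in WT and 0.41 (adjusted p = 0.0074) in deletion, and the C14R change was 0.18 (adjusted p = 0.21). After rescaling without small RNA genes these values became 0.75, 0.67 and 0.44, beside medians over all genes of 0.37, 0.36 and 0.35. The C14R change then passed the threshold (limma adjusted p = 0.0037), where 60.6% of all genes were called higher. The difference between the C14R and WT changes was -0.30 (95% interval -0.67 to 0.08, adjusted p = 0.88 by limma), so a different response in C14R was not shown. Without deletion replicate 3 of day 18 the deletion value was 0.29 (adjusted p = 0.054). Over the 3 constructs together, FOS went from 1.85 ± 0.328 (n = 9) to 2.64 ± 0.376, with an exact stratified permutation p of 0.00075.

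FOSB, whose truncated product accumulates under repeated stimulation in brain, ranged from 0.0944 to 0.246 FPKM at day 0 and from 0.045 to 0.235 at day 18. Within WT the day 18 libraries (0.125 to 0.161) lay below those of day 0 (0.164 to 0.246), and within C14R likewise (0.0450 to 0.115 against 0.144 to 0.172), while the days overlapped in deletion. The exact permutation p was 0.1 in WT and in C14R, the smallest that 3 against 3 allows, and 0.11 for the 3 constructs together with labels permuted within each. The share of all genes without overlap between the days is not given here. By limma, 72.2% of all tested genes passed between the days in WT and 72.9% in C14R. At day 18 the C14R libraries also lay below those of WT (exact permutation p = 0.1), a comparison in which 11.1% of all tested genes did not overlap.

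**Figure D2:**
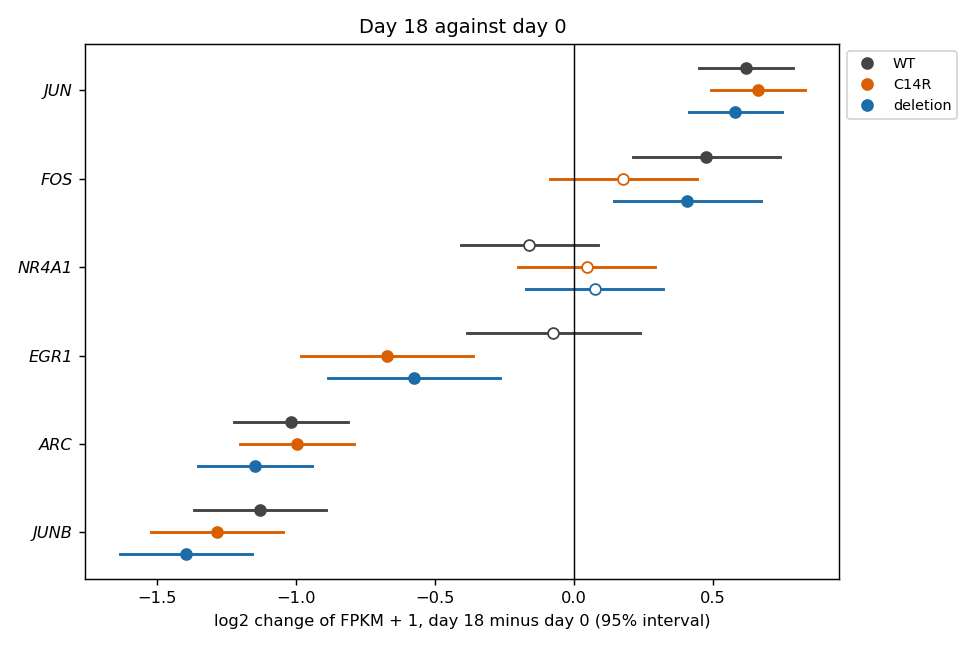
Change of log2(FPKM + 1) from day 0 to day 18 for the 6 tested genes in WT, C14R and deletion; points are limma estimates, bars 95% intervals, filled where the adjusted p is under 0.05. JUN (0.58 to 0.66) lies above 0 and ARC and JUNB (-0.996 to -1.40) below it in all 3 constructs, while EGR1 is at -0.07 in WT, -0.67 in C14R and -0.58 in deletion. ARC reached the filter only through its day 0 libraries.

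The other family members place these values. The 3 JUN genes summed to 37.5 ± 1.54 FPKM in WT at day 0 and 53.8 ± 4.75 at day 18. JUNB made up 31.4% ± 0.931 (SD, n = 3) of the sum at day 0 and 9.08% ± 1.41 at day 18. JUND, whose product is made with little need for a stimulus, went from 43.6% to 63.1%, and JUN from 25% to 27.8%. The share of JUNB fell to 7.61% in C14R and 7.84% in deletion at day 18, from 31.3% and 33.6%.

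The 4 FOS genes together moved the other way, from 17.8 ± 1.42 FPKM in WT at day 0 to 6.30 ± 0.694 at day 18. In C14R the sum went from 17.2 ± 1.94 to 5.44 ± 0.805 and in deletion from 18.9 ± 0.418 to 6.33 ± 0.518. The lower values were those of FOSL1, from 6.97 to 0.671 FPKM in WT, and FOSL2, from 8.84 to 2.64. FOSL1 reached the filter only through its day 0 libraries, so its limma call adds no support to this. FOSL1 and FOSL2 encode Fra-1 and Fra-2, which lack the strong activation domain of FOS. The share of FOS thus rose from 10.1% ± 3.16 to 45.4% ± 4.92 in WT, from 11.4% to 43.7% in C14R and from 9.47% to 42.8% in deletion. The share of FOSL1 fell from 39.1% to 10.3% in WT. Shares add to a fixed total, so each depends on the other members, and they were not tested.

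**Figure D3:**
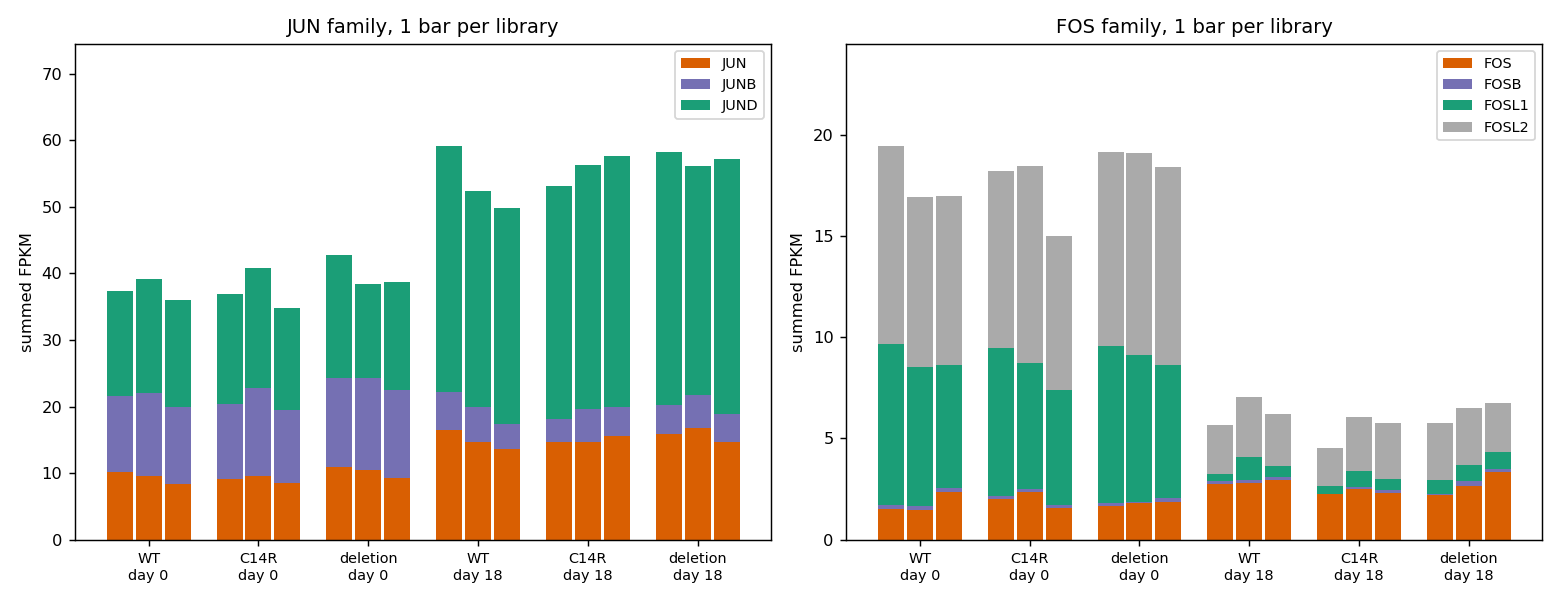
Summed FPKM of the JUN genes (left) and FOS genes (right), 1 stacked bar for each of 18 libraries, linear axes from 0. The JUN family sum is higher at day 18 (WT mean 53.8 against 37.5) with a thin JUNB layer, and the FOS family sum is lower (WT mean 6.30 against 17.8) with FOSL1 and FOSL2 reduced.

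EGR1, a zinc-finger factor that serum, ERK signalling and calcium all induce, had overlapping values in the 3 constructs at day 0. WT libraries had 9.97, 8.57 and 8.08 FPKM, C14R 8.95, 8.70 and 8.70, and deletion 8.71, 8.77 and 8.23. At day 18 WT libraries had 7.67, 8.59 and 8.85 FPKM, overlapping day 0. C14R libraries had 3.51, 6.94 and 5.44 and deletion libraries 4.73, 6.58 and 5.09, all 6 below every WT library of that day and every day 0 library. The day 18 mean of WT was 8.37 ± 0.618 (SD, n = 3), against 5.30 ± 1.72 for C14R and 5.47 ± 0.981 for deletion, so that C14R stood at 63.3% and deletion at 65.3% of WT.

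Between the days, EGR1 fell by 0.67 on the log2 scale in C14R (SE 0.15, limma adjusted p = 0.00054) and by 0.58 in deletion (adjusted p = 0.0020). The WT change was -0.07 (95% interval -0.38 to 0.24, adjusted p = 0.66). Without C14R replicate 1 of day 18, the lowest library, the C14R change was -0.45 (adjusted p = 0.0018). When small RNA genes were left out and the remaining FPKM rescaled, the C14R change became -0.35 (adjusted p = 0.031), the deletion change -0.25 (adjusted p = 0.12) and the WT change 0.28 (adjusted p = 0.079).

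Set directly against WT at day 18, EGR1 differed by -0.61 in C14R (95% interval -0.92 to -0.30) and by -0.54 in deletion (-0.85 to -0.23). Both comparisons use the same 3 WT libraries. The unadjusted limma p were 0.00070 and 0.0018 and the adjusted p 0.13 and 0.19, so neither passed the threshold, and the exact permutation p of 0.1 is the smallest that 3 against 3 allows. The adjusted p ranged from 0.011 to 0.93 over the alternatives for C14R and from 0.026 to 0.53 for deletion, with the lower ends reached with library weights or without one C14R library. Without C14R replicate 1 the C14R difference was -0.39 (adjusted p = 0.19). The interactions of construct with day were -0.60 for C14R (95% interval -1.04 to -0.16, adjusted p = 0.73) and -0.50 for deletion (-0.94 to -0.06, adjusted p = 0.61). Without C14R replicate 1 of day 18 the C14R interaction was -0.38 (adjusted p = 0.59 by limma). C14R and deletion differed from each other by -0.07 at day 18 (95% interval -0.38 to 0.24), and by 0.16 without that library (adjusted p = 0.98 by limma).

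Other measures also differed between these libraries, not all of them along with EGR1. The SNORD3A share at day 18 was 8.12% to 8.27% in deletion, inside the WT range of 7.215% to 15.1%. C14R replicate 1 of day 18, with the lowest EGR1, had the lowest SNORD3A share (1.01%), the largest sum of cycling-cell markers (181.8 FPKM) and the largest sum of neuronal markers (1499 FPKM) of the day 18 libraries. The mesenchymal markers summed to 152.8 to 161.4 FPKM in WT at day 18, 137.5 to 149 in C14R and 137.6 to 149.4 in deletion. Of the 8 tested, 5 had an unadjusted p under 0.05 against WT in each variant and 0 passed after adjustment. The neuronal markers summed to 1353 to 1381 FPKM in WT at day 18, 1411 to 1499 in C14R and 1432 to 1459 in deletion, with 3 and 2 of 9 at an unadjusted p under 0.05 and 0 after adjustment. The cycling-cell markers summed to 139.9 to 146.5 FPKM in WT, 148 to 181.8 in C14R and 148.1 to 151.7 in deletion, with 5 and 1 of 8 at an unadjusted p under 0.05 and 0 after adjustment. In all 3 lists the summed level of each variant did not overlap that of WT. Their part in the EGR1 values was not tested.

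EGR2 and EGR3, which EGR1-type stimuli also induce and which act in myelinating glia and in muscle spindles, were near the bottom of the range. EGR2 lay between 0.169 and 0.397 FPKM at day 0 and between 0.127 and 0.466 at day 18 (exact stratified permutation p = 0.31). EGR3 lay between 0.148 and 0.386 and then between 0.143 and 0.378 (p = 0.77 by the same permutation test). For both genes the days overlapped in full.

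**Figure D4:**
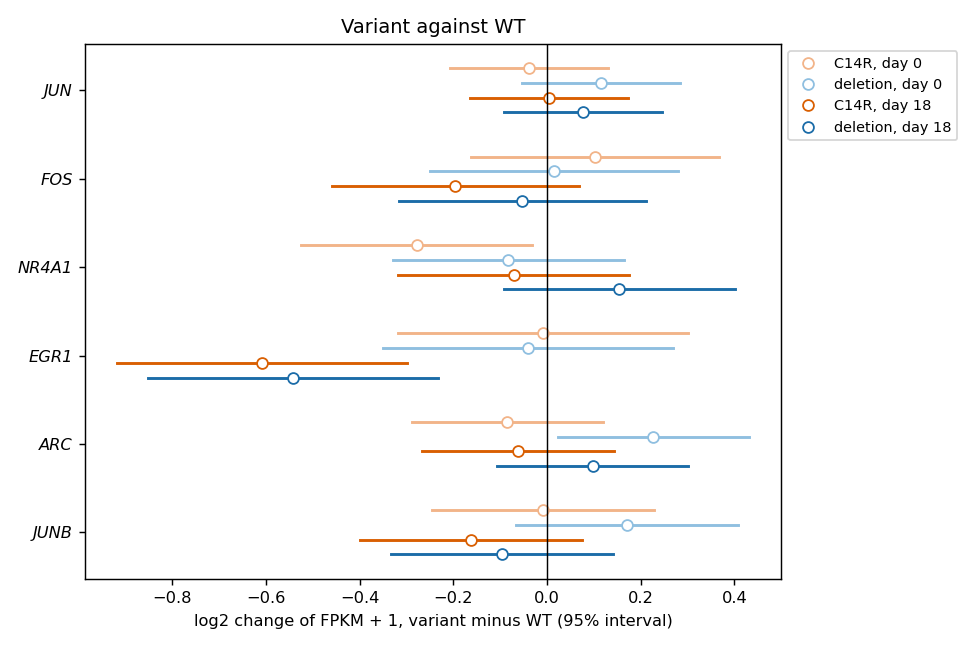
Difference in log2(FPKM + 1) of C14R and deletion from WT at day 0 (pale) and day 18 (dark) for the 6 tested genes; points are limma estimates with 95% intervals, drawn hollow because none passed the adjusted threshold. EGR1 at day 18 (-0.61 and -0.54) lies farthest from 0, and the intervals of JUN, JUNB and FOS all include it.

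NR4A1, the orphan receptor also called Nur77, passed the test in none of the constructs. Day 0 WT libraries measured 3.29, 2.77 and 3.31 FPKM, and day 18 WT libraries 3.22, 2.28 and 2.61. C14R libraries had 2.30, 2.71 and 2.19 and then 1.95, 2.76 and 2.88, and deletion libraries 3.004, 2.71 and 2.96 and then 3.59, 3.01 and 2.73. The days overlapped in each construct. The log2 changes were -0.16, 0.05 and 0.08 (limma adjusted p of 0.22, 0.74 and 0.57). After rescaling without small RNA genes they were 0.31 in C14R (adjusted p = 0.014) and 0.36 in deletion (adjusted p = 0.0060), beside medians over all genes of 0.35 and 0.36. At day 0 the 3 C14R libraries lay below the 3 WT libraries (-0.28, adjusted p = 1 by limma, exact permutation p = 0.1). In GENCODE, NR4A1 shares 754 exonic bases with the antisense RNA gene AC025259.3, so its values are uncertain in the same way as those of JUNB. Its relative NR4A3, which the related list below holds, rose from 1.48 to 4.96 FPKM in WT.

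ARC, the synaptic member, was lower at day 18 in all 3 constructs. Day 0 WT libraries measured 1.62, 2.12 and 1.96 FPKM, and day 18 WT libraries 0.459, 0.454 and 0.371. C14R had 1.82, 2.03 and 1.38 and then 0.363, 0.339 and 0.402, and deletion 2.39, 2.34 and 2.43 and then 0.535, 0.597 and 0.453. The highest day 18 library, 0.597, lay under the lowest day 0 library, 1.38. Day 18 means were 4.44-fold (WT), 4.73-fold (C14R) and 4.52-fold (deletion) lower. On the log2(FPKM + 1) scale, which understates changes of low genes, the values were -1.02 (SE 0.10), -0.996 and -1.15, with limma adjusted p of 4.4e-08, 5.8e-08 and 8.8e-09. With a pseudocount of 0.1 they were -1.92, -1.96 and -1.99. ARC reached the filter only through its day 0 libraries, so the limma p-values between the days are no support for a fall. At day 0 the deletion libraries lay above the WT libraries (0.23, 95% interval 0.02 to 0.43, adjusted p = 0.77 by limma).

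NPAS4, which in neurons follows calcium entry closely, was close to the limit of what these libraries can show. It lay between 0.0397 and 0.130 FPKM at day 0 and between 0 and 0.114 at day 18, when 3 libraries (WT replicates 1 and 2 and deletion replicate 1) were listed at 0. If the lowest value above 0 is taken as 1 fragment, the day 0 libraries held 2 to 7 fragments each and 34 in all. The day 18 libraries, although deeper, held 0 to 6 each and 18 in all. Every estimate came within 0.0767 of a whole fragment. The mean over the 9 libraries of a day was 0.0781 ± 0.0298 and then 0.0348 ± 0.0390 FPKM, with an exact stratified permutation p of 0.019. Over the 10 genes run, that p was not adjusted, and in the limma fit without a filter NPAS4 did not pass in WT (adjusted p = 0.055).

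Counted together, 4 of the 6 tested genes passed between the days in WT, FOS and JUN higher and JUNB and ARC lower. ARC is counted here although it reached the filter only through its day 0 libraries. Over all genes tested, 72.2% passed in that comparison, 38.2% higher and 34.0% lower. In C14R 4 passed, JUN higher and JUNB, EGR1 and ARC lower, beside 72.9% of all genes, 37.9% higher and 35.0% lower. In deletion 5 passed, FOS and JUN higher and JUNB, EGR1 and ARC lower, beside 73.0% of all genes, 38.6% higher and 34.4% lower. The shares are near those of all genes and say nothing particular of the 6. After rescaling without small RNA genes, 2 were higher and 2 lower in WT, 3 and 3 in C14R and 3 and 2 in deletion. Over all genes the split then moved to 62.2% higher and 16.4% lower in WT, 60.6% and 17.3% in C14R, and 61.4% and 16.9% in deletion. The median log2 change of the 6 was -0.12, -0.31 and -0.25 in WT, C14R and deletion, against 0.03, 0.02 and 0.03 over all tested genes.

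Between constructs, 0 of the 6 passed in any comparison at an adjusted p under 0.05 by limma. The share of all genes that passed was 0% for C14R against WT at day 0 and 0.0363% at day 18. It was 0.0290% for deletion against WT at day 0 and 0.0725% at day 18, and 0.0580% and 0.0290% for C14R against deletion. For the interactions with day it was 0% (C14R) and 0.0145% (deletion). At an unadjusted p under 0.05, C14R against WT had 1 gene at day 0 (NR4A1, beside 2.81% of all genes) and 1 at day 18 (EGR1, beside 11.1%). Deletion against WT had 1 at day 0 (ARC, beside 6.22%) and 1 at day 18 (EGR1, beside 11.4%). C14R against deletion had ARC at day 0 (beside 9.84%) and 0 genes at day 18 (beside 11.2%). The interactions each had EGR1 (beside 5.73% and 7.36%).

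Among the 6 tested genes, libraries of the 2 constructs did not overlap for NR4A1 in C14R against WT at day 0 (9.47% of all genes did not) and for FOS and EGR1 at day 18 (11.1%). In deletion against WT they did not overlap for JUNB and ARC at day 0 (18.0%) and for EGR1 at day 18 (18.9%). In C14R against deletion this was so for JUNB and ARC at day 0 (21.3%) and for ARC at day 18 (12.2%). Of the genes under the filter, FOSB and NPAS4 did not overlap in C14R against WT at day 18, nor EGR2 in deletion against WT at day 0. Each had an exact permutation p of 0.1. For NPAS4 the nearest libraries, replicate 3 of C14R and of WT, each held an estimated 1 fragment.

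Among 25 other immediate early genes, 19 were tested, of which 6 rose, 10 fell and 3 did not pass between the days in WT, with a median log2 change of -0.24. Of all tested genes 38.2% were higher and 34.0% lower in WT, with a median of 0.03. The WT counts of each list below are to be read beside these shares. The largest rises were those of NR4A3, ATF3 (3.61 to 9.47 FPKM), a stress-inducible bZIP repressor, and JUND (16.4 to 33.9 FPKM). The largest falls were those of CYR61, a secreted matrix protein that serum induces, from 24.9 ± 2.97 to 1.75 ± 0.149 FPKM (log2 change -3.23, limma adjusted p = 4.4e-14), and of FOSL1 and FOSL2. FOSL1, with day 18 means of 0.67 (WT), 0.58 (C14R) and 0.78 FPKM (deletion), reached the filter only through its day 0 libraries. Its call is therefore no support for a fall. In C14R and in deletion 6 rose and 12 fell, beside 37.9% and 38.6% of all genes higher and 35.0% and 34.4% lower. After rescaling without small RNA genes the WT split was 8 higher and 7 lower, beside 62.2% of all genes higher and 16.4% lower. The latter shares also go with the rescaled WT counts of the lists below.

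The ERK feedback list, with phosphatases and Sprouty-type inhibitors that ERK signalling itself induces, split evenly in WT, with 7 of 16 tested higher and 7 lower. DUSP6, a cytoplasmic ERK phosphatase, rose from 22.1 ± 0.406 to 81.9 ± 1.14 FPKM, DUSP8 from 3.34 to 9.62 and ETV5 from 19.4 to 37.0. SPRY2 fell from 27.4 ± 1.48 to 6.20 ± 0.652 FPKM, DUSP7 from 6.82 to 3.29 and PHLDA1 from 5.86 to 3.25. The split after rescaling was 9 higher and 3 lower.

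Late response genes, which immediate early factors help to induce, included 17 tested of 24. In WT 10 of the 17 rose and 3 fell, with a median of 0.48, beside 38.2% of all genes higher and a median of 0.03. SCG2, secretogranin II of dense-core vesicles, rose from 119 ± 5.51 to 444 ± 19.5 FPKM. VGF, a secreted neuropeptide precursor, rose from 102 ± 5.70 to 370.5 ± 28.7 and CREM, a CREB relative that includes the cyclic AMP-inducible repressor ICER, from 9.98 ± 0.292 to 27.9 ± 0.904. TIMP1, PLAT and PLAUR, genes of extracellular proteolysis, fell, TIMP1 from 40.1 to 21.8 FPKM. After rescaling 14 were higher and 2 lower, beside 62.2% of all genes higher. Neuronal markers rose in the same libraries, and their part in this was not tested.

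The factors that bind immediate early promoters split 6 higher and 6 lower of 16 in WT. SRF fell from 9.49 ± 0.800 to 4.56 ± 0.694 FPKM, and the ternary complex factors ELK4, from 14.8 to 7.28, and ELK3, from 27.4 to 15.9, fell as well. MEF2D rose from 8.91 to 13.9 FPKM, MKL1, an actin-regulated partner of SRF, from 3.63 to 5.11 and CRTC1, a CREB coactivator, from 3.74 to 5.19. After rescaling 10 were higher and 5 lower. Of 19 kinases and calcineurin subunits tested, 7 rose and 2 fell. The ERK gene MAPK3 rose from 9.14 to 22.4 FPKM. CAMK2G rose from 11.7 to 24.0 FPKM and CAMK2D fell from 32.0 to 21.1. The kinase split was 6 higher and 4 lower with median-of-ratios scaling and 15 higher and 1 lower after rescaling without small RNA genes, so it depends on the scaling.

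All 13 tested of 14 cytoskeletal SRF targets fell in each construct, with a median log2 change of -1.39 in WT. Of all tested genes 34.0% were lower in WT, 35.0% in C14R and 34.4% in deletion. Among the 13, CNN1 had a mean under 1 in every day 18 group and in no day 0 group. It thus reached the filter only through day 0 libraries, so its call is no support for a fall. TAGLN went from 161 ± 10.1 to 4.07 ± 0.612 FPKM, ACTA2 from 61.6 ± 0.853 to 1.93 ± 0.392 and TPM1 from 208 ± 15.9 to 37.3 ± 2.10. The 13 also fell after rescaling. Mesenchymal markers fell in the same libraries, and several of these targets are expressed in mesenchymal cells. Their part was not tested. Of 12 tested partners and corepressors of AP-1, EGR and NR4A factors, 6 rose and 2 fell, RXRA, the retinoid X receptor that pairs with NR4A1, going from 3.55 ± 0.446 to 1.19 ± 0.125 FPKM. BATF3, at a mean of 0.123 FPKM in WT at day 0 and 2.60 at day 18, reached the filter only through day 18 libraries, so its call is no support for a change. After rescaling 9 partners were higher and 1 lower of 11 tested.

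**Figure D5:**
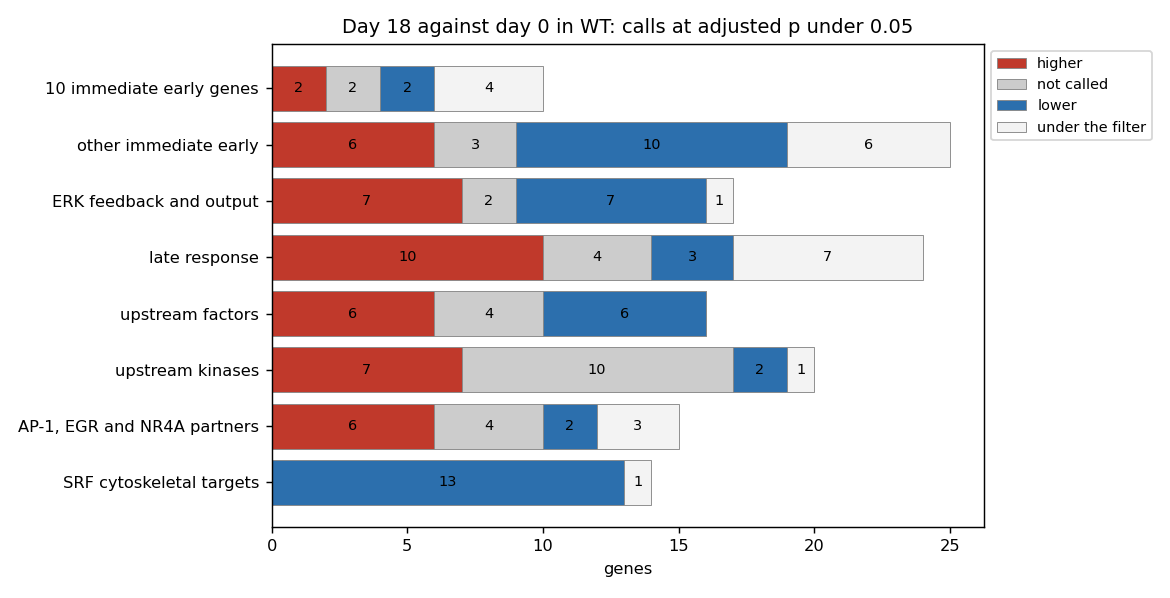
Number of genes in each list that were higher, lower or not called at day 18 against day 0 in WT (limma, adjusted p under 0.05) or under the filter. The SRF cytoskeletal list has 13 lower and 0 higher, late response genes have 10 higher and 3 lower, and the 10 immediate early genes have 2 higher, 2 lower, 2 not called and 4 under the filter.

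No gene of these lists passed between constructs at either day or in an interaction, except DDIT3 of the stress list described in the closing section. SPRY1, an ERK feedback inhibitor, is named for its likeness to EGR1 across libraries, given below. It was at 11.9 ± 1.02 FPKM in WT at day 18, 7.95 ± 1.72 in C14R and 8.17 ± 1.61 in deletion, with differences from WT of -0.54 (limma adjusted p = 0.12) and -0.51 (adjusted p = 0.15). Replicates 1 to 3 of C14R at day 18 were at 5.99, 9.205 and 8.66 FPKM, and the difference is given only with replicate 1.

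Deviations of each library from its own group mean were compared across the 18 libraries, as a description. For EGR1 the tested genes with the highest Pearson r were TUBGCP2 (0.93), TLE3 (0.92) and SPRY1 (0.92), and 0.83, 0.84 and 0.83 over the 17 libraries without C14R replicate 1 of day 18. For JUN they were NAGPA (0.91 in the 17 libraries), C19orf68 (0.90 over all 18) and ID2 (0.87), and for FOS LOC100506639 (0.85), LINC01590 (0.79) and CYP3A5 (0.78). They are the highest of 13785 genes and the values share library depth and composition. Among the 6 tested immediate early genes themselves, the 15 pairs had r from -0.38 to 0.56 with a median of 0.28, and 13 were above 0.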

How the data were processed

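Total RNA was depleted of ribosomal RNA and made into libraries with the NEBNext Ultra kit, per the labels' protocols. The authors deposited FPKM, 1 value per gene symbol and library. The submitters' processing notes name TopHat2, STAR, Cufflinks 2.2.1 and hg38, with no role or order, and strand use and any further scaling are not given in the sources used here. All 18 columns carry sample titles and 0 lacked a sample.

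From these values, log2(FPKM + 1) was fitted with limma 3.58.1 in R 4.3.3 (empirical Bayes with a mean-variance trend) as 6 group means over 18 libraries. Genes with a mean FPKM of at least 1 were tested (13785 of 26372), and 4960 symbols were at 0 throughout. P-values were adjusted by Benjamini-Hochberg within each of 11 comparisons. Exact two-sided permutation tests used 3 against 3 libraries or days within constructs (scripts in Python 3.11.15). The fit was tested on simulated data.

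All 10 genes are named. From each related list, up to 3 rises and 3 falls with separated libraries in WT are named, plus any gene passing between constructs. For FOS, EGR1 and JUN the 3 genes with the highest within-group correlation are named. Of the genes so selected, 1 is not reported here. The members and lists were chosen with earlier results of these data known. Gene positions are from GENCODE release 29 (GRCh38) and promoters from RefSeq (GRCh38.p14).

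The tests of the 10 genes were recomputed with small RNA genes (2337) removed and FPKM rescaled, array weights, quantile normalization, scaling by median ratios, a replicate block, only the compared libraries, no variance trend, no filter or a higher one (mean FPKM 5), a smaller pseudocount (0.1), and with each library left out in turn. The list counts were recomputed only under the 3 other scalings, and the shares and ratios under none.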

Additional observations from a re-analysis of the deposited data

How the results depend on the processing

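Over 10 other settings and 18 fits that each left out 1 library, 1806 of 1815 values of single genes kept their direction where called and their side of the threshold, 7 newly passed it, 2 no longer did and none reversed. With a mean FPKM of at least 5 only 3 of the 10 genes were tested, so the counts between the days became 2 in WT and 3 in deletion. Array weights brought 1 gene, EGR1, past the threshold in C14R against WT and 1, again EGR1, in deletion against WT at day 18 (-0.52, adjusted p = 0.026, and -0.57, adjusted p = 0.026, by limma). With 1 library left out the number of genes passing between the days was 4 to 4 in WT, 4 to 4 in C14R and 4 to 5 in deletion. Against WT at day 18 it was 0 to 1 in C14R, reached without C14R replicate 2 (EGR1 -0.79, adjusted p = 0.011), and 0 to 1 in deletion, reached without C14R replicate 1, which enters that comparison only through the shared spread (adjusted p = 0.033). Among the lists, rescaling without small RNA genes raised the kinase count from 9 to 16. Libraries with the same replicate number did not deviate together (45 pairs, r from -0.36 to 0.17, median -0.01, 6 over 0.1), so the numbers are not taken as a pairing. With the replicate block 4, 4 and 5 genes passed between the days and 0 between constructs, and the block changed no call. Depth limits what can be said of NPAS4, FOSB, EGR2 and EGR3.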

Other observations

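The 13 stress genes that handling of cells can induce, all tested, split in WT into 5 higher, 4 lower and 4 that did not pass between the days, with a median log2 change of 0.08. With quantile normalization 7 were higher and 4 lower, and after rescaling without small RNA genes 10 and 2. HSPA1A and HSPA1B, inducible heat shock chaperones, rose from 8.16 ± 0.527 to 13.9 ± 0.670 and from 10.5 ± 0.801 to 18.5 ± 0.185 FPKM (SD, n = 3). They are near-identical copies, so reads could be divided between them. BAG3, their co-chaperone, fell from 5.85 to 3.78 FPKM and DDIT4, an inhibitor of mTORC1, from 24.9 to 8.65. ATF4, which drives the integrated stress response, fell from 85.3 ± 2.92 to 72.7 ± 4.08 FPKM.

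DDIT3, the ATF4 target also called CHOP, was the only gene of any list, the 10 immediate early genes included, that passed between constructs. It rose from 7.72 ± 0.494 to 21.8 ± 2.59 FPKM in WT. At day 18 it was at 12.6 ± 1.46 FPKM in C14R, 0.74 lower than WT on the log2 scale (-0.74, SE 0.09, limma adjusted p = 0.0011, libraries not overlapping), and at 16.8 ± 1.25 in deletion.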
